A study of Mus musculus with 4 samples.

Results

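Levels of 6 regulator of G-protein signalling (RGS) genes, *Rgs2*, *Rgs4*, *Rgs7*, *Rgs9*, *Rgs16* and *Rgs17*, were described by cell class, genotype and diet in single-cell RNA sequencing of mouse pancreatic islets. The 6 were taken from the 21 RGS genes among the 32285 genes of the count tables. The set was chosen by the measured genotype ratios of *Rgs2* in beta-like cells, which had opposite signs in the 2 diets, so the genotype values of *Rgs2* in beta-like cells are a description of what chose it. Male mice on the C57BL6/N background were wild type (WT) or homozygous (HH) for an R200H substitution knocked into the endogenous *Pax4* allele, which encodes a transcription factor of beta-cell development, so the substitution was carried in every cell and not in beta cells alone. WT and HH mice were littermates. WT SCD and HH SCD islets came from mice of 12 weeks on standard chow diet (SCD), and WT HFD and HH HFD islets from mice of 16 weeks fed a high-fat diet (HFD) for 4 weeks, so diet and age cannot be told apart. Each group was 1 droplet 3′ library from the pooled islets of 2 to 3 mice. With 1 library per group, library and group cannot be told apart, no difference was tested against biological spread, and every interval below is a 95% interval of counting error only.

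RGS proteins speed the hydrolysis of GTP by the G protein α subunit and so shorten signalling from G-protein-coupled receptors. In beta cells such receptors set insulin secretion in both directions, with muscarinic and fatty acid receptors acting through Gq, incretin receptors through Gs, and adrenergic and somatostatin receptors through Gi and Go. *Rgs2*, *Rgs4* and *Rgs16* encode small proteins of the R4 family, of which Rgs2 prefers Gq and Rgs4 and Rgs16 act on Gi as well as Gq. *Rgs7* and *Rgs9* encode R7 family proteins, which act on Gi and Go and are stable only with the β subunit Gnb5, and *Rgs17* encodes an RZ family protein that acts on Gi, Go and Gz.

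The members lie on chromosomes 1, 10 and 11 of GRCm38, and 4 of the 6 on chromosome 1. *Rgs2* (ENSMUSG00000026360) spans chr1:143999338-144004161 on the minus strand. *Rgs4* (ENSMUSG00000038530) spans chr1:169741477-169747642 on the minus strand, and *Rgs16* (ENSMUSG00000026475) chr1:153740349-153745468 on the plus strand. The 250 bases before the start of each of these 3 genes are shown because theirs were the 3 levels called different between genotypes in beta-like cells, with RefSeq sequence of GRCm38.p6 for chr1:144004150-144004399, chr1:169747643-169747892 and chr1:153740103-153740352, read 5′ to 3′ on the strand of the gene. The starts used are those of RefSeq, which for *Rgs2* and *Rgs16* lie a few bases from the ends of the spans above, which come from the GENCODE annotation. Capitals mark the half-site TGACG, the CCAAT box and the TATAAA box, or the reverse complement of each.
Rgs2: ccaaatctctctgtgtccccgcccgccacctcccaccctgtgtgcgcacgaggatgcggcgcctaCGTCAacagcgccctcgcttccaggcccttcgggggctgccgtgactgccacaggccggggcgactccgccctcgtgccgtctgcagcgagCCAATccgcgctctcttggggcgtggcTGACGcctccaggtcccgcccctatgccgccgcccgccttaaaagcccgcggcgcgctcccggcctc
Rgs4: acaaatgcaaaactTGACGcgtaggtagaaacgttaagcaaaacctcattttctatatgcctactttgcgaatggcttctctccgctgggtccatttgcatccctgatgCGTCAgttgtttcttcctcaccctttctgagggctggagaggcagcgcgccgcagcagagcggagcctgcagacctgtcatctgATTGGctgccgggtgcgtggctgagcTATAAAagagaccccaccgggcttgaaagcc
Rgs16: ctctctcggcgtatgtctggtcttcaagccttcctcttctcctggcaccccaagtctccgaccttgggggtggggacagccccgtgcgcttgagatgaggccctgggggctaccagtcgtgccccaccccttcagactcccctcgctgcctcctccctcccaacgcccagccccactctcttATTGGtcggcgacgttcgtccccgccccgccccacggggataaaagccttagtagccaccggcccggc
TGACG, the half-site of the cAMP response element, was present in 17.8% of 32851 promoters of this length, on either strand. The *Rgs2* window held it 67 to 63 and 185 to 181 bases before the start, and the *Rgs4* window 236 to 232 and 141 to 137 bases before. It was absent from the windows of *Rgs7*, *Rgs9*, *Rgs16* and *Rgs17*, and the full element TGACGTCA, found in 1.55% of promoters, was absent from all 6. TGACG is part of TGACGTCA, and no other motif searched contains another. CCAAT was present in *Rgs2*, *Rgs4*, *Rgs9* and *Rgs16* (33.8% of promoters) and TATAAA in *Rgs4* and *Rgs9* (12.4%). The GC box CCCGCCC, not marked by capitals above, was present in *Rgs2*, *Rgs16* and *Rgs17* (23.4%). The E-box, CACGTG, was present in *Rgs7* alone of the 6 (6.02%). Each motif was searched on both strands and a match is a description of the letters only. G and C made up 72.4% of the *Rgs2* window, 53.6% of the *Rgs4* window and 66.4% of the *Rgs16* window, against a median of 52.4% over all promoters.

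The 4 libraries held 4665 to 7123 barcodes and 68011082 to 104810105 UMIs (unique molecular identifiers, each counting 1 captured transcript end), and 1999 to 4231 cells per library were kept. Pairs of libraries shared 6 to 11 barcodes. Clusters were named from marker genes, and of 12404 cells 7984 were beta-like, 1643 alpha-like, 1137 delta-like, 554 endothelial-like and 507 PP-like, the last named for pancreatic polypeptide, with smaller stromal-like, macrophage-like, lymphocyte-like, ductal-like and Schwann-like classes. The beta-like class held 2021 WT SCD, 1982 HH SCD, 1136 WT HFD and 2845 HH HFD cells, with median depths of 24190 to 29781.5 UMIs. *Pax4* had 0 UMIs in all 4 libraries, and so its level gave no check of the labels. A level is the summed UMIs of a class in a library per 1000000 UMIs of that class (CPM), a scale on which a 3′ count does not depend on gene length. A gene was called higher or lower when its mean level over both libraries was at least 10 CPM, its log2 ratio was at least 0.5 in size and the counting interval of the ratio left out 0.

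*Rgs2* was the most abundant member in beta-like cells in each of the 4 libraries, and its order between genotypes differed by diet. On SCD the WT cells stood at 76.0 CPM (73.7 to 78.3, 4137 UMIs) and the HH cells at 44.5 CPM (42.7 to 46.3, 2347 UMIs). On HFD the WT cells stood at 141 CPM (137 to 145, 4801 UMIs) and the HH cells at 261 CPM (257 to 264, 18428 UMIs). HH SCD was thus the lowest library and HH HFD the highest, with no interval overlapping another. The log2 ratio of HH over WT was −0.77 (−0.85 to −0.70) on SCD and 0.88 (0.84 to 0.93) on HFD. Of 5694 genes tested in both diets, 1 was called lower on SCD and higher on HFD, namely *Rgs2* itself, and 0 the other way, so that this pattern covered 0.0176% of genes, a share the choice of *Rgs2* already used. The ratio was the 6th lowest of 6064 on SCD and the 26th highest of 5907 on HFD. The median ratio of all genes tested was −0.08 on SCD and −0.13 on HFD, and relative to it *Rgs2* stood at −0.69 and 1.01. Between diets, the log2 ratio of HFD over SCD was 0.90 (0.84 to 0.96) in WT and 2.55 (2.49 to 2.61) in HH.

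**Figure D1:**
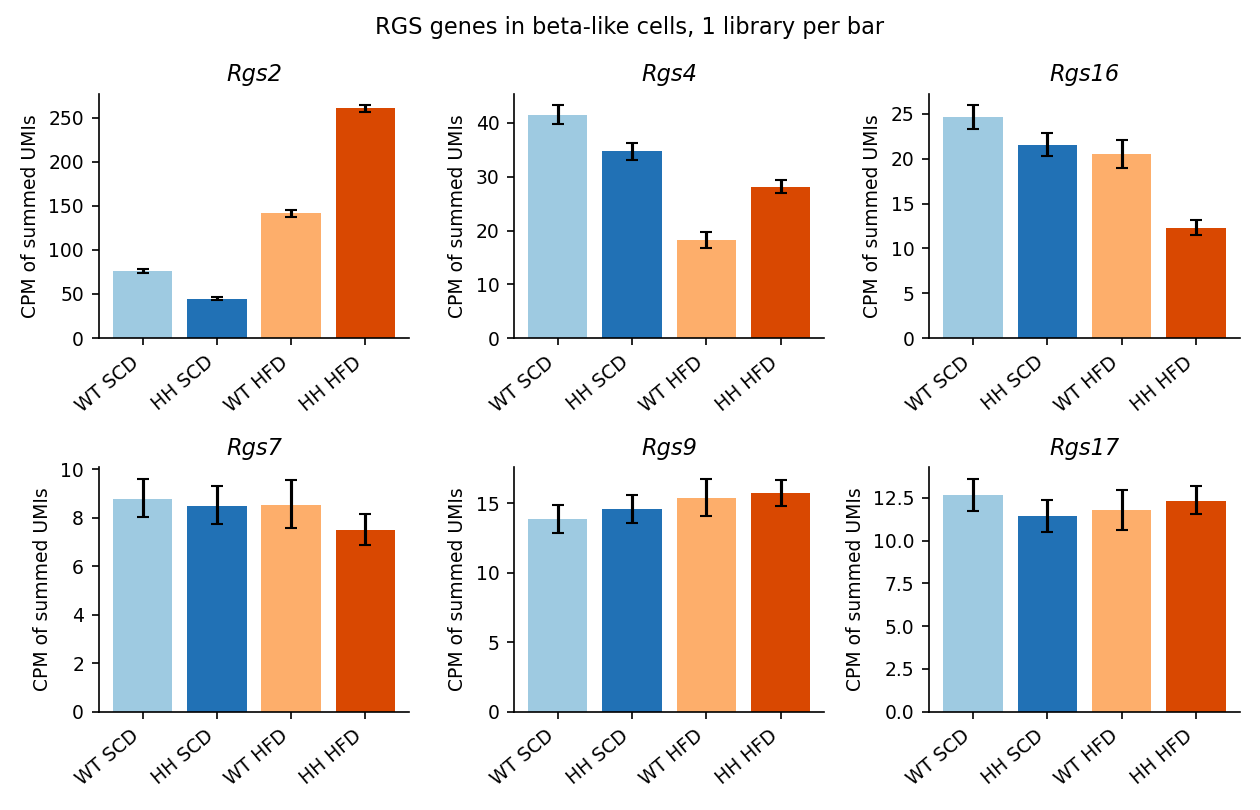
Levels of the 6 members in beta-like cells, as CPM of summed UMIs on a linear axis from 0, with 1 bar per library and error bars giving the exact 95% Poisson interval. *Rgs2* was lowest in HH SCD (44.5 CPM) and highest in HH HFD (261 CPM), while *Rgs7*, *Rgs9* and *Rgs17* stood at 7.51 to 15.8 CPM in all 4 libraries.

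*Rgs4*, known in beta cells as a brake on muscarinic M3 receptor signalling, had the same signs at lower levels. On SCD it was measured at 41.6 CPM (39.9 to 43.3) for WT against 34.7 CPM (33.1 to 36.3) for HH, and on HFD at 18.2 CPM (16.8 to 19.7) for WT against 28.1 CPM (26.9 to 29.4) for HH. Its highest library was WT SCD and its lowest WT HFD, so that WT bounded the range on both sides. The log2 ratio of HH over WT was −0.26 (−0.35 to −0.17) on SCD, not called, and 0.63 (0.50 to 0.76) on HFD, called higher and the 42nd highest of 5907. The HFD call was lost in cells with fewer UMIs of other hormones, at 0.37, and under a looser filter on cells, at 0.46. The log2 ratio of HFD over SCD was −1.19 (−1.33 to −1.07) in WT, called lower, and −0.30 in HH, not called. *Rgs2* and *Rgs4* therefore differed in sign between diets within each genotype, while both were higher in HH than in WT on HFD.

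*Rgs16*, known from glucose-stimulated islets and the embryonic endocrine pancreas, was called lower in HH on HFD. On SCD the level was 24.6 CPM (1341 UMIs) for WT and 21.5 CPM (1137 UMIs) for HH, and on HFD it was 20.5 CPM (696 UMIs) for WT and 12.3 CPM (869 UMIs) for HH. The first 3 libraries were close to each other and HH HFD stood below them. The log2 ratio of HH over WT was −0.19 (−0.31 to −0.08) on SCD, not called, and −0.74 (−0.88 to −0.59) on HFD, called lower and the 40th lowest of 5907. Relative to the median of all genes it was −0.11 on SCD and −0.61 on HFD. The log2 ratio of HFD over SCD was −0.26 in WT and −0.81 in HH, of which the latter was called lower.

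The R7 and RZ members varied little. *Rgs7*, a regulator known mainly from neurons, stood at 8.79, 8.50, 8.54 and 7.51 CPM in WT SCD, HH SCD, WT HFD and HH HFD, under the level needed for a call. *Rgs9*, known from photoreceptors and striatum, stood at 13.9, 14.6, 15.4 and 15.8 CPM, with log2 ratios of HH over WT of 0.07 (−0.08 to 0.22) on SCD and 0.03 (−0.12 to 0.19) on HFD. *Rgs17* stood at 12.6, 11.4, 11.8 and 12.3 CPM, with ratios of −0.15 (−0.31 to 0.01) and 0.07 (−0.10 to 0.24). The intervals of all 4 of these ratios held 0 and no end of them was beyond 0.31 in size.

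Of the 5 members that passed the level filter in beta-like cells, 1 was called lower in HH on SCD, where 0.445% of 6064 genes were, and 0 higher, where 0.066% were. On HFD 2 were called higher, where 1.1% of 5907 genes were, and 1 lower, where 2.79% were. Between diets 1 member was called higher and 1 lower in WT (1.6% and 5.65% of 6176 genes) and 1 higher and 1 lower in HH (2.92% and 8.62% of 5822 genes). These comparisons share libraries, and the members were chosen with such values known, so nothing is read from the shares.

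**Figure D2:**
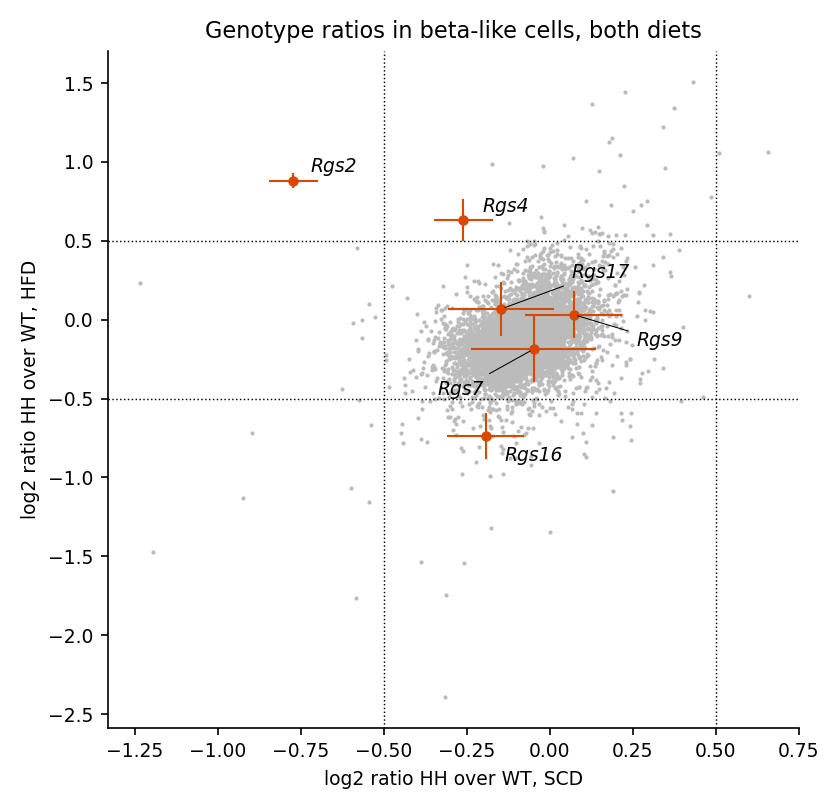
Log2 ratio of HH over WT in beta-like cells on SCD (horizontal) against HFD (vertical) for all genes tested in both diets (grey points) and the 6 members (orange, with counting intervals); dotted lines mark a ratio of 0.5 in size. *Rgs2* stands alone at −0.77 and 0.88, *Rgs4* lies at −0.26 and 0.63, and *Rgs16* at −0.19 and −0.74.

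Per cell, *Rgs2* UMIs were not confined to a few beta-like cells, though on HFD the difference was uneven between clusters, as given below. After each cell was thinned to 3000 UMIs, which left out no beta-like cell, 17.8% (16.2 to 19.6, exact Clopper-Pearson) of WT SCD cells, 12.0% (10.6 to 13.5) of HH SCD cells, 29.7% (27.0 to 32.4) of WT HFD cells and 41.2% (39.3 to 43.0) of HH HFD cells had an *Rgs2* UMI. Without thinning the shares were 65.2%, 53.0%, 79.1% and 85.6%, in the same order of libraries. At 10000 UMIs per cell, a depth that left out 2 to 19 beta-like cells per library, 2.23%, 0.455%, 6.90% and 18.5% of cells carried 5 or more *Rgs2* UMIs, with highest counts of 12, 7, 18 and 46. The 1% of cells with the most *Rgs2* UMIs held 6.77% to 10.1% of them, whereas for *Rgs4* the top 1% held 13.5% to 19.0%. *Rgs4* was thus the more concentrated of both, yet cells with 5 or more *Rgs4* UMIs made up only 0.354% to 1.09% of any library.

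For the other members the share of beta-like cells with a UMI at 3000 UMIs was 3.96% to 8.71% for *Rgs4*, 4.01% to 6.48% for *Rgs16*, 2.02% to 2.38% for *Rgs7*, 3.91% to 4.78% for *Rgs9* and 2.38% to 4.36% for *Rgs17*. In endothelial-like cells, taken as a class low in these genes, the shares were 0 to 3.15% for *Rgs4*, 0 to 2.60% for *Rgs16*, 0 to 0.787% for *Rgs7*, and 0.685% to 1.12% for *Rgs9*. *Rgs17* was found in 0 of 89 to 192 endothelial-like cells per library at this depth, and a count of 0 allows a share of cells with a UMI of up to 1.56% to 3.37% by the 3 count floor and 1.90% to 4.06% by the exact interval. Median depths before thinning were 5812 to 7127 UMIs in endothelial-like cells. The intervals of both classes overlapped in all 4 libraries for *Rgs7* and in at least 1 library for each of the other 4 genes, so these low shares were not told apart from background throughout. As levels, *Rgs7* stood at 7.51 to 8.79 CPM in beta-like and 0 to 3.35 CPM in endothelial-like cells. Endothelial-like cells themselves held *Rgs2* in 6.25% to 18.9% of cells, so that no class served as a background for *Rgs2*.

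**Figure D3:**
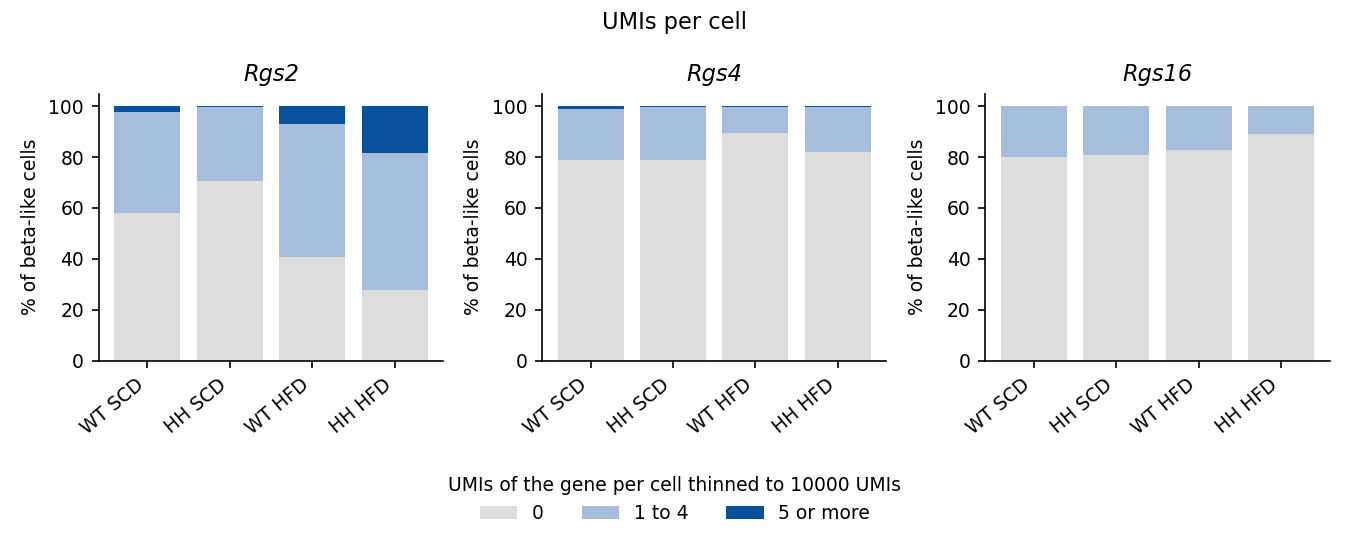
Share of beta-like cells with 0, 1 to 4 and 5 or more UMIs of *Rgs2*, *Rgs4* and *Rgs16* in each library, after cells were thinned to 10000 UMIs, with 2 to 19 shallower cells per library left out. Cells with 5 or more *Rgs2* UMIs made up 18.5% of HH HFD and 0.455% of HH SCD.

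RNA from other cells was measured beside these levels, since it could carry members into beta-like droplets. Marker genes of other endocrine classes summed to 277 to 670 CPM (alpha), 80.6 to 149 CPM (delta) and 614 to 1288 CPM (PP) in the beta-like sums of the 4 libraries. B lymphocyte markers summed to 7.14 to 59.9 CPM, with *Cd79b* and *Ms4a1* at 0 in some libraries, macrophage markers to 38.8 to 53.1 CPM and endothelial markers to 4.85 to 25.4 CPM. The PP, delta, endothelial and B lymphocyte sums were highest in HH HFD, the library in which *Rgs2* was highest. The *Rgs2* that would come along with the lead marker of each of 9 other classes, summed over the classes and with a marker at 0 set to the 3 UMI floor, came to 0.432 and 0.452 CPM for WT and HH on SCD and to 1.11 and 1.46 CPM on HFD, or 0.561% to 1.02% of the *Rgs2* level in beta-like cells. For the other 5 members this sum was 0.179% to 2.32% of their level. Each part scales by the lead marker alone. For B lymphocytes this was *Cd79b*, at 0.283 CPM in the HH HFD beta-like sum, where all B lymphocyte markers summed to 59.9 CPM. The sum can therefore miss RNA of other cells.

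The same sums were taken over clusters formed without any RGS gene, because *Rgs2*, *Rgs4* and *Rgs16* had been among the variable genes of the first clustering. This clustering was added after the data were seen. It gave 7879 beta-like cells in 7 clusters, and the libraries of the 2 diets shared few of them. On SCD the clusters led by *Gad1* and *Chac1* held 40.1% and 38.7% of WT cells, and those led by *Chac1* and *C2cd4a* 39.9% and 29.0% of HH cells. *Rgs2* was lower in HH SCD in each of the 5 beta-like clusters with at least 20 cells of both genotypes. WT and HH cells stood at 69.5 and 45.7 CPM in the cluster led by *Chac1*, at 80.6 and 44.8 CPM in the cluster led by *Gad1*, and at 200 and 104 CPM in the cluster led by *Cpb2*. The log2 ratios over the 5 clusters ran from −0.94 to −0.61, with no interval holding 0. *Rgs16* on SCD had no common sign, with ratios of 0.09 (−0.10 to 0.28) in the cluster led by *Chac1* and 0.18 (−0.13 to 0.50) in that led by *C2cd4a*, both intervals holding 0. It was lower in HH at −0.34 (−0.55 to −0.13) in the cluster led by *Gad1* and −0.58 (−1.09 to −0.08) in that led by *Cpb2*. In the cluster led by *Zdhhc22* the ratio was −0.19 (−0.94 to 0.58). The *Rgs4* ratio on SCD ran from −1.30 to 0.17 over the 5 clusters and was below 0 in all but the one led by *C2cd4a*.

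On HFD the *Rgs2* difference was uneven between clusters. A cluster led by *Zdhhc22* and *Nupr1* held 82.3% of WT HFD and 40.4% of HH HFD beta-like cells, with *Rgs2* at 133 CPM (WT) and 153 CPM (HH), a log2 ratio of 0.20 (0.13 to 0.27). A cluster led by *Dapl1*, *Aldh1a3* and *Serpina7*, of which *Aldh1a3* is known as a marker of beta cells that lose identity, held 49.2% of HH HFD cells (1368) and 2.31% of WT HFD cells (26), so it was nearly a cluster of 1 library and cell state and library cannot be told apart. *Rgs2* stood there at 313 CPM in HH HFD and 89.1 CPM in WT HFD, and 66.1% of all *Rgs2* UMIs of HH HFD beta-like cells (11985) lay in it. In the *Cpb2*-led cluster *Rgs2* stood at 264 CPM in WT HFD and 469 CPM in HH HFD, a log2 ratio of 0.83 (0.70 to 0.96). In the first clustering the HFD ratio was 0.10 (0.02 to 0.17) in a cluster led by *Nupr1* that held 42.6% of WT HFD and 36.8% of HH HFD beta-like cells, and 0.04 (−0.08 to 0.17) in one led by *Gm42941* that held 43.8% and 8.96%, the latter interval holding 0.

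With the *Dapl1*-led cluster left out, an alternative also chosen after the data were seen, *Rgs2* stood at 143 CPM (139 to 147) in WT HFD and 201 CPM (196 to 207) in HH HFD. The log2 ratio was then 0.49 (0.44 to 0.55), just under the size needed for a call, against −0.78 on SCD. In the same cells *Rgs4* kept a ratio of 0.84 (0.69 to 0.99) and *Rgs16* one of −0.59 (−0.77 to −0.42) on HFD.

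*Rgs4* and *Rgs16* differed between genotypes within the *Zdhhc22*-led cluster itself. There *Rgs4* stood at 18.4 CPM (16.9 to 20.1) in WT HFD and 34.6 CPM (32.4 to 37.0) in HH HFD, a log2 ratio of 0.91 (0.75 to 1.07). *Rgs16* stood at 19.1 CPM (17.5 to 20.8) and 11.5 CPM (10.2 to 12.9), a log2 ratio of −0.73. In the *Dapl1*-led cluster *Rgs4* stood at 20.2 and 24.9 CPM and *Rgs16* at 10.6 and 11.1 CPM in WT HFD and HH HFD, with overlapping intervals. *Rgs16* was highest in the *Cpb2*-led cluster in all 4 libraries, at 59.4, 39.8, 45.4 and 26.6 CPM in WT SCD, HH SCD, WT HFD and HH HFD, and *Rgs4* on SCD was highest in the *Gad1*-led cluster among clusters of at least 20 cells, at 53.1 CPM (WT) and 47.5 CPM (HH).

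**Figure D4:**
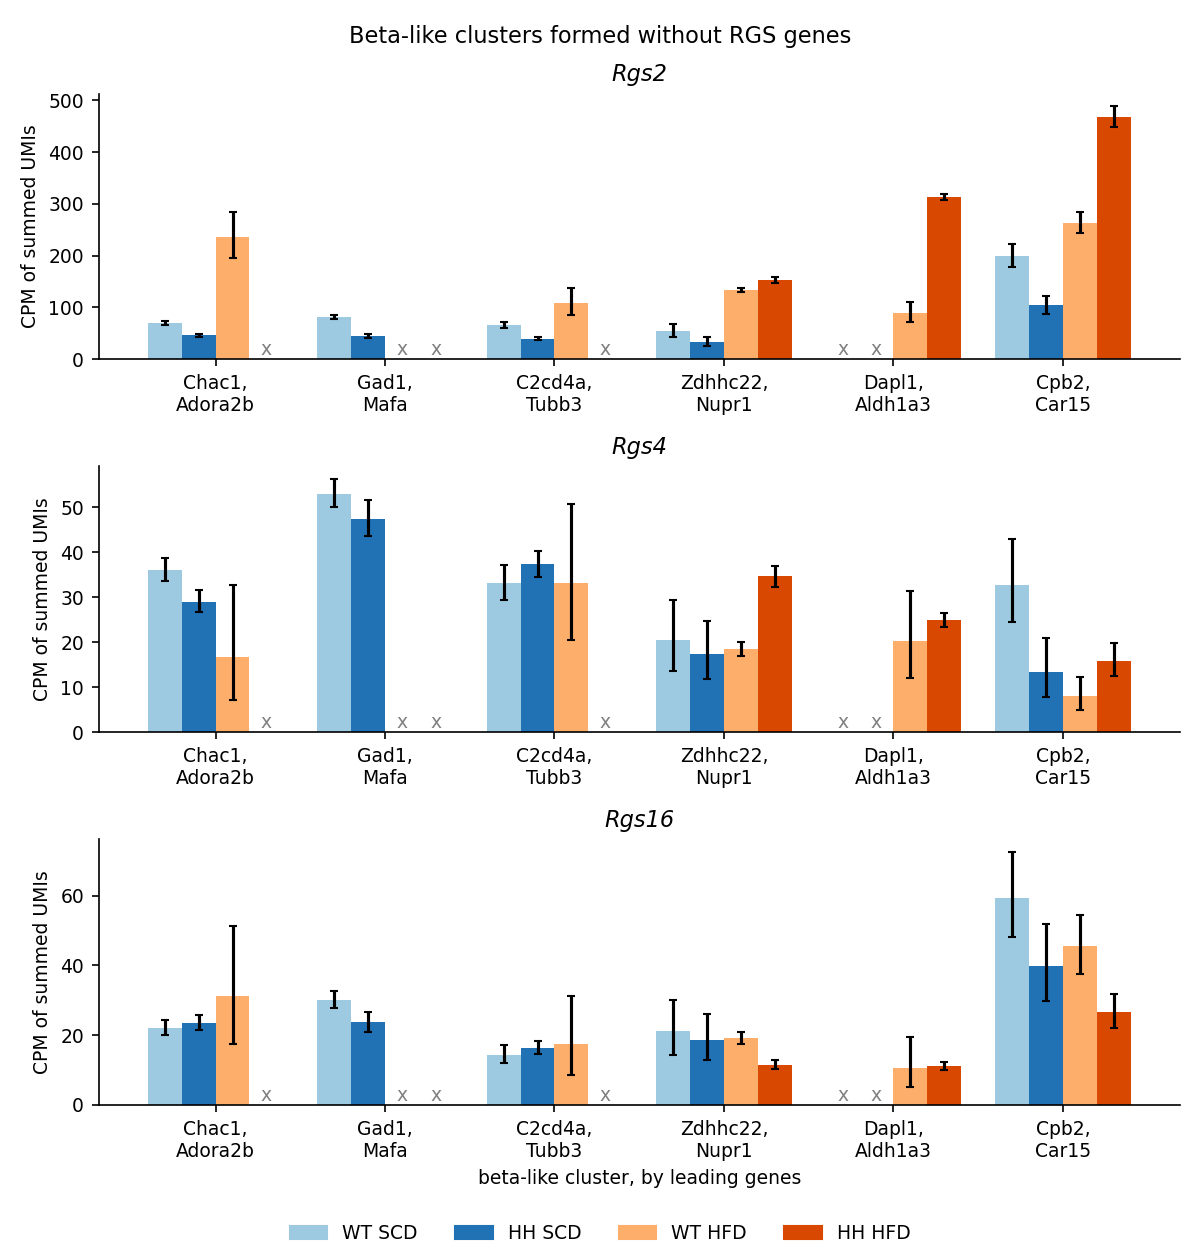
Levels of *Rgs2*, *Rgs4* and *Rgs16* in 6 beta-like clusters formed without RGS genes, named by leading genes, as CPM of summed UMIs per library with exact 95% Poisson intervals; an x marks a library with under 20 cells. *Rgs2* stood at 133 and 153 CPM in the *Zdhhc22*-led cluster and at 313 CPM in the HH HFD cells of the *Dapl1*-led cluster.

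Beta-like cells were also split by single genes and by depth. In cells with no *Fos* UMI after thinning, *Fos* being an early response gene, the log2 ratio of HH over WT was −0.66 on SCD and 1.08 on HFD, and in the remaining cells −0.78 and 0.82. By depth, the SCD ratio was −0.82, −0.82 and −0.70 in cells of 3000 to 20000, 20000 to 30000 and 30000 to 50000 UMIs, and the HFD ratio 0.38, 0.69 and 1.13. The HFD ratio was thus smallest in the shallowest cells, of which HH HFD had 29.1% and WT HFD 12.3%. After thinning to 3000 UMIs, cells without a *Mafa* UMI but with one of *Gc*, *Aldh1a3* or *Serpina7* made up 21.5% of HH HFD and 6.34% of WT HFD beta-like cells. At that depth a *Mafa* UMI can be missed in a cell that expresses it, so these are not shares of cells lacking *Mafa*. *Rgs2* in this group of cells stood at 370 CPM in HH HFD and 146 CPM in WT HFD, against 227 and 141 CPM in the other cells.

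Among other cell classes, *Rgs2* was called different between genotypes in no endocrine class but beta-like, while 2.18% (SCD) and 2.85% (HFD) of genes were called in the alpha-like class, 3.13% and 4.27% in the delta-like class and 4.15% and 5.89% in PP-like cells. In delta-like cells, the somatostatin cells, its levels were 233 CPM (WT) and 174 CPM (HH) on SCD and 536 CPM (WT) and 581 CPM (HH) on HFD, with log2 ratios of HH over WT of −0.42 (−0.58 to −0.26) and 0.12 (0.00 to 0.23). In alpha-like cells, the glucagon cells, it stood at 47.5, 42.1, 98.6 and 129 CPM, with ratios of −0.18 (−0.44 to 0.09) and 0.39 (0.22 to 0.57). In PP-like cells it stood at 85.8, 86.7, 226 and 207 CPM, with ratios of 0.01 (−0.29 to 0.32) and −0.13 (−0.32 to 0.06). Both HFD libraries thus lay above both SCD libraries in all 4 endocrine classes. HH lay below WT on SCD and above it on HFD in beta-like, delta-like and alpha-like cells, the alpha-like SCD interval holding 0, and in PP-like cells both intervals held 0. In endothelial-like cells the diets stood the other way round, at 90.6 and 80.0 CPM on SCD and 25.3 and 29.1 CPM on HFD.

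*Rgs4* stood higher in the alpha-like and delta-like classes than in beta-like cells in each library. Alpha-like cells held it at 132, 100, 177 and 176 CPM in WT SCD, HH SCD, WT HFD and HH HFD, and delta-like cells at 164, 191, 184 and 162 CPM. Its SCD ratio of HH over WT was −0.39 (−0.56 to −0.23) in alpha-like and 0.22 (0.06 to 0.39) in delta-like cells, neither called. Its HFD ratio was −0.01 (−0.15 to 0.13) in alpha-like and −0.18 (−0.39 to 0.03) in delta-like cells, against the 0.63 of beta-like cells. In PP-like cells it stood at 36.3 and 32.5 CPM on SCD and 81.2 and 80.2 CPM on HFD, and both ratios of HH over WT had intervals that held 0.

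*Rgs16* on HFD was lower in HH in delta-like and PP-like cells as well. In delta-like cells it stood at 28.3, 34.2, 59.8 and 36.4 CPM in WT SCD, HH SCD, WT HFD and HH HFD, and the HFD ratio of −0.71 (−1.12 to −0.31) was called, where 2.94% of 8429 genes were called lower. In PP-like cells it stood at 7.57 CPM in WT SCD and 9.48 CPM in HH SCD. On HFD it stood there at 18.9 CPM (31 UMIs) in WT HFD and 6.96 CPM (19 UMIs) in HH HFD, a called ratio of −1.44 (−2.35 to −0.57), where 4.82% of 6705 genes were called lower. WT HFD was the highest library in the delta-like and PP-like classes, whereas in beta-like cells HH HFD stood below the others. In alpha-like cells the HFD ratio was −0.19 (−0.73 to 0.35).

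*Rgs9*, *Rgs7* and *Rgs17* were highest in delta-like cells among the 4 endocrine classes. *Rgs9* stood there at 150, 151, 141 and 121 CPM, against 13.9 to 21.9 CPM in beta-like, alpha-like and PP-like cells. *Rgs7* stood at 46.1 to 51.6 CPM in delta-like and 14.6 to 20.1 CPM in alpha-like cells. *Rgs17* stood at 56.1, 74.8, 83.7 and 85.7 CPM in delta-like and 39.2 to 49.4 CPM in alpha-like cells, with a delta-like ratio on SCD of 0.42 (0.14 to 0.70) that was not called. In PP-like cells *Rgs17* was called lower in HH on SCD at a ratio of −0.60, from 57 UMIs in WT and 42 in HH, where 2.42% of 6147 genes were called lower and the interval ended just under 0. On HFD it stood at 23.8 CPM (WT) and 31.9 CPM (HH), a ratio of 0.42 whose interval held 0 and that was not called.

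**Figure D5:**
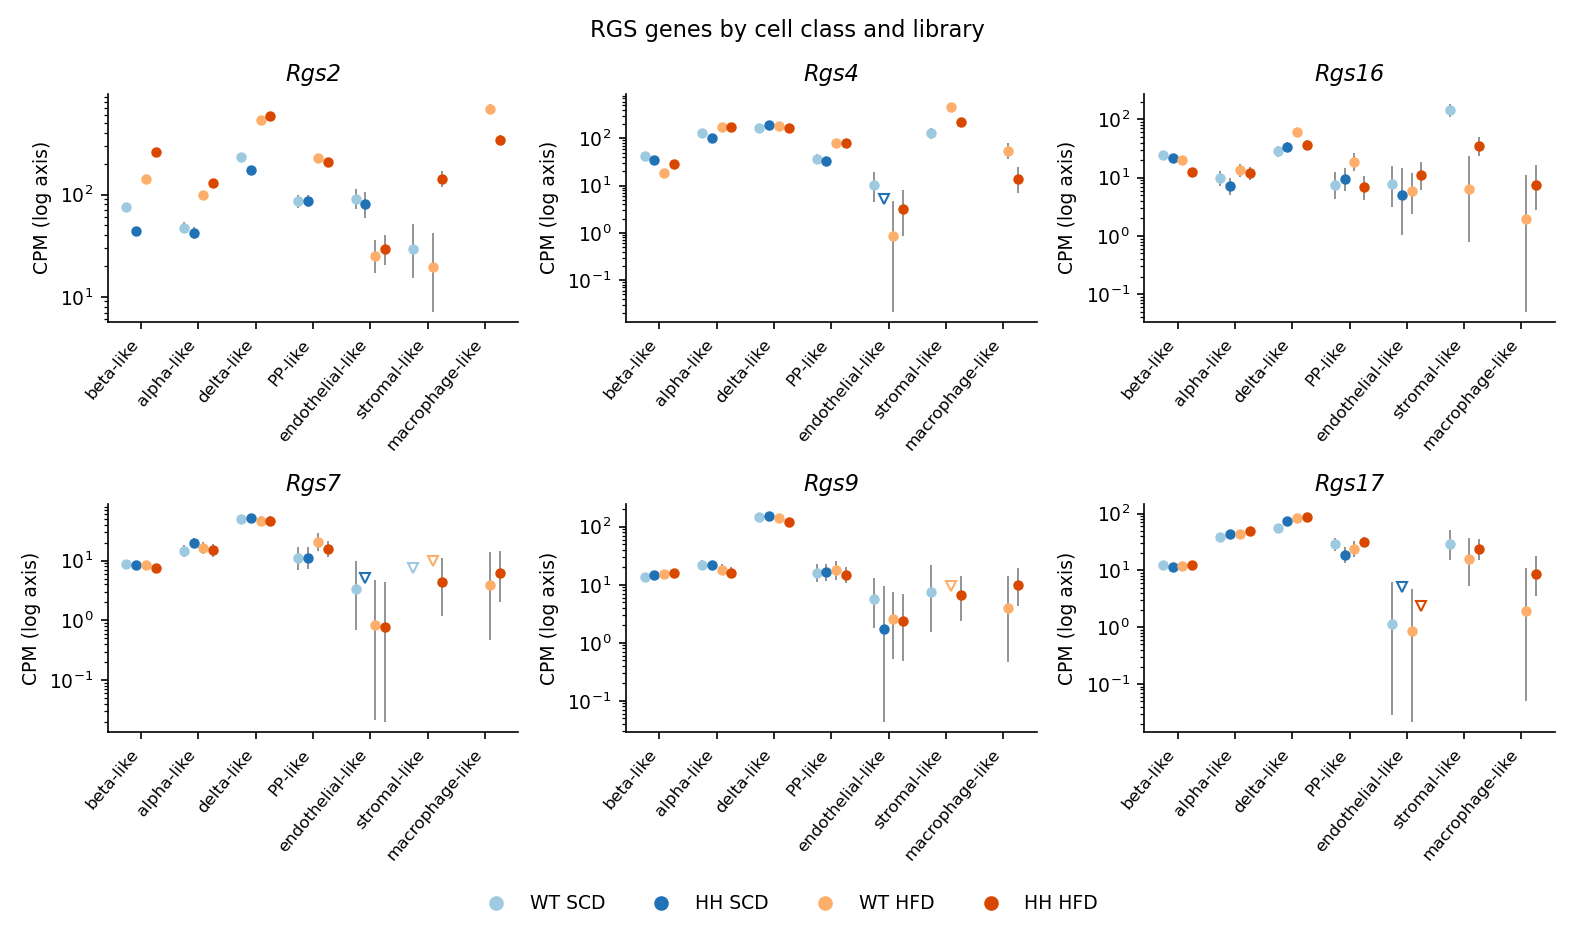
Levels of the 6 members by cell class and library as CPM on a log axis, with exact 95% Poisson intervals; hollow triangles mark the limit that 3 UMIs give where the sum was 0, and sums of under 20 cells are left out. *Rgs9* stood at 121 to 151 CPM in delta-like cells and at most at 21.9 CPM in the other endocrine classes.

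In non-endocrine cells the sums were small. Macrophage-like cells on HFD held *Rgs2* at 695 CPM (WT, 48 cells) and 343 CPM (HH, 49 cells), called lower where 29.5% of 6758 genes were, and *Rgs4* at 54.8 and 13.7 CPM, from 28 and 11 UMIs, also called lower. The macrophage gene *C1qb* stood at 6888 CPM (WT) and 1937 CPM (HH) in these sums, and the median depth was 9675 and 15496 UMIs, and their part in the result was not tested. The class named from B lymphocyte markers was not compared between genotypes, since it was led by *Apol7c*, *Lsp1* and *Ccr7*, and its *Cd79b* level, a part of the B cell receptor, was 131 CPM in WT HFD against 685 CPM in HH HFD.

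Stromal-like cells fell into clusters that used different members. A cluster led by *Rgs5*, *Acta2* and *Myh11*, genes of pericytes and smooth muscle, held *Rgs4* at 784 CPM in WT HFD (129 UMIs in 26 of 27 cells) and 599 CPM in HH HFD (169 UMIs in 47 of 52 cells), with 0 and 5 *Rgs2* UMIs. A cluster led by *Dcn* and *Col1a1*, genes of fibroblasts, held *Rgs4* at 76.2 and 52.1 CPM and *Rgs2* at 41.5 and 197 CPM on HFD. For the whole class on HFD *Rgs2* had 6 UMIs in WT and 130 in HH, a log2 ratio of 2.87 (1.71 to 4.34), and *Rgs16* 2 and 32 UMIs, a ratio of 2.43 (0.46 to 5.54), both called higher where 3.03% of 8694 genes were. *Rgs4* stood at 453 CPM (140 UMIs, WT) and 221 CPM (202 UMIs, HH), a ratio of −1.04 (−1.36 to −0.72) called lower where 16.8% were. The *Rgs5*-led cluster made up 27 of 46 class cells in WT HFD and 52 of 109 in HH HFD, and the part of this shift in the class ratios was not tested. In the *Dcn*-led cluster 125 *Rgs2* UMIs lay in 15 of 57 HH HFD cells, with 23 in 1 cell.

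Of 15 other RGS genes, 1 passed the level filter in beta-like cells, *Rgs11*, an R7 family gene, at 15.6, 14.1, 28.6 and 22.2 CPM in WT SCD, HH SCD, WT HFD and HH HFD. Its log2 ratios of HH over WT were −0.14 and −0.37, neither called, and those of HFD over SCD 0.88 in WT and 0.65 in HH, both called higher. On HFD it stood above *Rgs7*, *Rgs9*, *Rgs16* and *Rgs17* in both genotypes, and above *Rgs4* in WT. *Rgs3* came next at 5.05 to 6.66 CPM. Elsewhere the leading genes were *Rgs3* (66.0 to 112 CPM) and *Rgs12* (60.4 to 87.7 CPM) in endothelial-like cells, *Rgs1* (393 to 1643 CPM) and *Rgs10* (238 to 842 CPM) in macrophage-like cells, and *Rgs5* (1804 to 6594 CPM) and *Rgs10* (24.0 to 49.4 CPM) in stromal-like cells. In the other endocrine classes they were low, *Rgs3* (7.83 to 13.3 CPM) and *Rgs11* (5.05 to 10.0 CPM) in alpha-like cells, *Rgs3* (7.15 to 16.8 CPM) and *Rgs19* (5.15 to 7.61 CPM) in delta-like cells, and *Rgs11* (3.05 to 5.49 CPM) and *Rgs3* (1.01 to 7.32 CPM) in PP-like cells.

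The partners and targets of RGS proteins were counted from fixed lists in beta-like cells. Of the R7 partners 2 were tested on SCD, with 0 called, and 1 on HFD, *Rgs7bp*, which anchors R7 proteins at the membrane and was called lower with 14.0 CPM (WT) and 9.93 CPM (HH), a log2 ratio of −0.50. That ratio lay just at the size needed for a call. None of 9 Gα subunits, 3 Gi-coupled receptors and 7 cAMP effectors was called in either diet, and none of the Gq-coupled receptors, Gs-coupled receptors and Gq effectors on SCD. On HFD 1 of 3 Gq-coupled receptors was called lower, the muscarinic receptor *Chrm3* (20.3 to 13.8 CPM, −0.55), 1 of 3 Gs-coupled receptors, the incretin receptor *Gipr* (33.5 to 20.1 CPM, −0.74), and 1 of 3 Gq effectors, the kinase *Prkca* (50.2 to 32.8 CPM, −0.61), and 0 genes of these lists were called higher. Of all genes 2.79% were called lower on HFD and 0.445% on SCD, and with 1 to 3 genes tested a single call sets the share of a list. Median-of-ratios size factors shift every HFD ratio alike, moving the median of all genes from −0.13 to −0.01. By that shift *Rgs7bp*, *Chrm3* and *Prkca* would fall under the size needed for a call, and *Gipr* would not. The median ratio on HFD was −0.49 over the Gs-coupled receptors and −0.19 to −0.12 over the Gα subunits, the Gq-coupled and Gi-coupled receptors and both lists of effectors, against −0.13 over all genes tested.

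Early response genes, which the dissociation of islets can also induce, differed between libraries beside *Rgs2*, itself known as an early response gene in many cells. On SCD 1 of 17 was called lower in HH, *Nr4a1* (WT 145 CPM, HH 99.2 CPM, −0.54), where 0.445% of all genes were, 0 were called higher, and *Fos* stood at 790 and 1040 CPM. On HFD 11 of 16 were called lower, where 2.79% of all genes were, and 0 higher, among them *Nr4a1* (−1.15), *Fosb* (−0.87) and *Ier2* (−0.82), with a list median of −0.61 against −0.13 for all genes. *Fos* stood at 676 CPM (WT) and 472 CPM (HH) on HFD, called lower at −0.52. Between diets 10 of 17 were called lower and 1 higher on HFD in WT, where 5.65% and 1.6% of all genes were, and 15 of 17 lower and 0 higher in HH, where 8.62% and 2.92% were. Of the heat shock genes 1 of 11 was called lower in HH on SCD, *Hspa1b* (−0.59), and 4 of 11 on HFD, against the same 0.445% and 2.79% of all genes, among them *Hspa1b* (−1.76), *Hspa1a* (−1.75) and *Dnajb1* (−1.54). Median-of-ratios size factors shift every ratio of a diet alike, moving the median of all genes from −0.08 to 0.01 on SCD and from −0.13 to −0.01 on HFD. By that shift *Nr4a1* and *Hspa1b* on SCD would fall under the size needed for a call. On HFD *Fos* and some other calls of both lists would do so as well. The part of the early response and heat shock genes and of depth in the member values was not tested.

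By the pair of genotype ratios in beta-like cells, the genes nearest to *Rgs2* of 1361 compared were *Bambi*, *Errfi1*, *Sst*, *Chgb* and *Cltrn*, at distances of 0.61 to 0.82 on the log2 scale. *Sst*, the hormone of delta cells, is the marker used above for delta-cell RNA in beta-like droplets, and whether its ratio is one of beta-like cells was not tested. *Bambi*, a decoy receptor of the TGF-β family, stood at 47.3, 42.0, 38.1 and 75.7 CPM in WT SCD, HH SCD, WT HFD and HH HFD, with ratios of −0.17 and 0.99. Over 29 sums of 10 classes, which share libraries and so are not independent points, the levels of *Rgs7* and *Rgs9* had a Pearson r of 0.91 and those of *Rgs4* and *Rgs17* one of 0.87, whereas *Rgs2* and *Rgs4* had an r of 0.08. Of 13178 genes the most alike were *Tec* (0.79), *Slc9a9* (0.74) and *Matk* (0.73) for *Rgs2*, *Sobp* (0.90) for *Rgs4*, *Brsk1* (0.75) for *Rgs16*, *Gm4924* (0.93) for *Rgs7*, *Hap1* (0.94) for *Rgs9* and *Slc4a3* (0.93) for *Rgs17*.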

How the data were processed

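The authors deposited, for each of 4 libraries, a filtered matrix of raw UMI counts (genes by barcodes), which the study's methods and processing notes trace to Cell Ranger 6.0 on mm10 (GRCm38). The counts were not normalised, and no correction for free RNA or removal of doublets had been applied to the files. Cell names were rebuilt from the counts and may therefore differ from the study's.

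Cells with mitochondrial UMIs under 10%, 3000 to 50000 UMIs and 2000 to 5000 genes were kept. Doublets were scored per library with Scrublet, whose automatic threshold failed, so the highest scores were removed at 0.8% per 1000 cells (33 to 154 cells, 1.62% to 3.51%). Libraries were clustered together without integration (3000 variable genes, 30 principal components, 20 neighbours, Leiden resolution 1, seed 1). A cluster was called X-like from at least 3 markers of a fixed list.

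UMIs were summed per class and library. Levels have exact Poisson intervals, ratios exact conditional binomial intervals and shares exact Clopper-Pearson intervals, all at 95% and covering counting error only. The 3 UMI floor gives the limit for a sum of 0. No test was run, as each group was 1 library. The calculation was tested on simulated counts. The members and gene lists were chosen with earlier results of these data known. Named were the 6 members, up to 3 called genes per list and diet in beta-like cells, the 2 highest other RGS genes per class compared, and the genes most alike: for *Rgs2* the 5 nearest by genotype ratios, and for each member the 3 of highest r, of which the first is given for all but *Rgs2*. *Fos* was named beyond this rule after its values were seen. Alternatives changed the filters, doublet removal, clustering, scaling, weights, depth range and call thresholds. Sequences came from RefSeq (GRCm38.p6), matched by symbol for 6 of 6 members. Python 3.11.15, scanpy 1.11.5, numpy 2.4.6, pandas 2.3.3, scipy 1.17.1, igraph 0.11.9 and matplotlib 3.10.9 were used.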

Additional observations from a re-analysis of the deposited data

Results flagged for a closer look

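3 results had ratios of HH over WT of opposite sign in the 2 diets with both counting intervals clear of 0, each from 1 library per group, and no test of the diets against each other could be made. In beta-like cells the log2 ratio of HH over WT of *Rgs2* was −0.77 on SCD and 0.88 on HFD, which is the pattern the gene was picked for. In beta-like cells that of *Rgs4* was −0.26 on SCD, not called, and 0.63 on HFD. Over the beta-like clusters formed without RGS genes the *Rgs4* ratio on SCD ran from −1.30 to 0.17, so its sign was not the same in all of them. In delta-like cells that of *Rgs2* was −0.42 on SCD and 0.12 on HFD, the latter with an interval from 0.00 to 0.23, whose lower end lay just above 0. Ratios of other members also changed sign between diets, with an interval that held 0 in at least 1 diet.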

How the results depend on the processing

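The *Rgs2* ratio of HH over WT in beta-like cells kept its sign under every alternative run. On SCD (−0.77) it was −0.68 with median-of-ratios size factors, −0.64 in cells with fewer UMIs of other hormones and −0.66 in cells with no *Fos* UMI, and −0.82 to −0.72 under 11 others. On HFD (0.88) it was 1.0, 1.08 and 1.08 under those settings, 0.79 with each cell weighted equally, 0.69 in cells of 20000 to 30000 UMIs and 0.49 without the *Dapl1*-led cluster, a setting chosen after seeing the data, and 0.84 to 0.91 under 8 others. Genes called in beta-like cells on SCD numbered 31, and 10 at a minimum of 50 CPM, 542 at a minimum of 10 UMIs, 4 at a log2 ratio of 1 and 18 with size factors. On HFD they numbered 230, and 73, 1521 and 32 under the first 3 of these. Of the calls, 12.9% on SCD and 28.3% on HFD were higher in HH, against 38.9% and 63.2% with size factors and 26.1% and 32.9% without the hormone and mitochondrial genes. *Rgs2*, *Rgs4* and *Rgs16* kept their calls under both scalings, and none of the 3 was called at a log2 ratio of 1. *Rgs4* on HFD fell to 0.37 in cells with fewer UMIs of other hormones and 0.46 under a looser filter on cells, and was called under neither. The uncalled ratios of *Rgs7*, *Rgs9* and *Rgs17* changed sign under some settings. The cause of these shifts was not tested. The share of beta-like cells with an *Rgs2* UMI was 17.8%, 12.0%, 29.7% and 41.2% in WT SCD, HH SCD, WT HFD and HH HFD at 3000 UMIs, 41.9%, 29.5%, 59.1% and 72.1% at 10000, and 65.2%, 53.0%, 79.1% and 85.6% unthinned. No paired analysis was possible because each group was 1 library and no test was run, and leaving out a replicate would leave a group empty. Sums of few UMIs in non-endocrine classes limit what can be said there.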
